A study of Drosophila melanogaster with 10 samples.

Results

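The antisense piRNA positions that held their level when the flamenco cluster was silenced were examined along transposon consensus sequences in OSCs, a cultured line of Drosophila melanogaster ovarian somatic cells. A position was kept if its antisense coverage averaged at least 200 per 1000000 miRNA reads in the 2 Gal4 libraries and if the ratio of the mean of the 2 Panx-IDR libraries to that mean lay between 0.8 and its inverse. The element roo was left out. The rule found 17993 kept positions of 610009 in 122 elements, or 10.3% of the 175299 positions outside roo that reached a Gal4 coverage of 200. Another 154411 of those positions (88.1%) lay below 0.8 and were called lowered, and 2895 (1.65%) lay above the upper limit and were called raised. These labels rest on the Panx-IDR and Gal4 libraries themselves, so values from that contrast are given below as a description without a test.

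The series holds 10 libraries of Argonaute-bound small RNAs from this line. Panx-IDR cells were homozygous for an insertion of 14 UAS sites ahead of the flamenco promoter. They were transfected, and again after 48 h, with a plasmid for Gal4 joined to the disordered region of Panoramix (its IDR), which silences transcription. They were harvested at day 6 (1 library) or day 7 (1 library) by sorting for reduced GFP from the reporter beside the UAS sites. Gal4 cells (2 libraries) carried the same insertion and were transfected with Gal4 alone. The treatment label and the methods leave them unsorted, while their own descriptions call them sorted, and if they were unsorted, sorting and silencing cannot be told apart. siArmi cells (3 libraries) and siLuc cells (3 libraries) had the wildtype genotype, received siRNA against armitage or luciferase at 0 and 48 h, and were harvested at 96 h. The tethering lines were grown from single cells, and the labels assign no harvest day to a Gal4 library. The study speaks of biological replicates for averaged small RNA tracks without tying the term to these libraries, so p-values measure the spread between these libraries, which may be technical.

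piRNAs are small RNAs that guide Piwi proteins to transposon transcripts. In the somatic cells of the ovary they are cut from long single-stranded precursors, above all from flamenco, a cluster on the X chromosome rich in transposon fragments that face against the direction of transcription, so that its piRNAs are antisense to the elements. Smaller clusters and the 3′ untranslated regions of some genes feed the same pathway. Armitage is an RNA helicase that brings precursors to the outer mitochondrial membrane, where they are processed, and the pathway needs it whatever the source locus. The coverage on a consensus does not say which genomic copy a read came from, and the genomic position of the copies was not analysed here.

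The values were scaled to miRNA reads, and the smallest step between values placed the depth at 117444 to 151205 miRNA reads in Panx-IDR and 87066 to 110492 in Gal4, against 586560 to 875165 in siArmi and 1297626 to 1799370 in siLuc. A coverage of 200 therefore stood for 23.5 to 30.2 reads in Panx-IDR and 17.4 to 22.1 reads in Gal4. At this depth a single position could not be placed firmly. Only 60.5% of the kept positions (10894) were within these limits on both Panx-IDR days taken one at a time, and the ratio of the 2 Gal4 libraries to each other lay in the same range at 58.4% of kept positions. Although the rule picks close group means, the Panx-IDR and Gal4 values did not overlap at 27.7% of kept positions. At 7.71% both Panx-IDR values were the higher ones. The statements below therefore rest on runs, windows and whole parts of an element.

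The median kept position had a Gal4 coverage of 738 and a ratio of 0.94. The limits did not fall in a gap of the distribution. There were 3841 positions with a ratio from 0.8 to 0.85, just inside the lower limit, and 4577 from 0.75 to 0.8, just outside it. At the upper limit 813 positions lay from a ratio of 1.2 up to the limit and 729 from the limit to 1.3. Around the coverage limit, 683 positions had 200 to 220 and 843 had 180 to 200, with median ratios of 0.98 and 1.01.

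Kept positions were found in 27 of the 54 elements with any position at a Gal4 coverage of 200 outside roo, and 3 of them held 45.1%. flea, a gypsy-family LTR retrotransposon, had 3563, TART-A, one of the LINE-like elements that maintain Drosophila telomeres, had 2349, and I-element_new, a LINE-like element known for causing hybrid dysgenesis, had 2197. They were followed by 17.6 (1902), Doc (1442), HMS-Beagle (1028), Idefix (829), Stalker2 (805), jockey (791) and opus (693), and these 10 elements held 86.7%. mdg3 (618), rooA (528), Quasimodo (381), 1360 (304) and Stalker (226) were the others with at least 100. The remaining 12 elements held 337 kept positions in all, with 88 in Copia1, 81 in Repbase_DNAREP1 and between 1 and 38 in each of the others. These counts moved with single tethering libraries. 17.6 had 1130 without Gal4 replicate 1 and 3153 without Gal4 replicate 2, and Idefix had 553 and 1343. Without Gal4 replicate 2, mdg3 had 363 and Stalker 421, and 17.6 and TART-A (2858) then had more kept positions than flea (2790). Without the day 7 library of Panx-IDR, Stalker had 349 and HMS-Beagle 1517. The order of the elements by count therefore depends on the library.

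By class, 15 gypsy-family LTR elements held 56.5% of the kept positions, and 7 LINE-like elements, which copy themselves without long terminal repeats, held 37.8%. A pair of LTR elements of the BEL/Pao or copia families held 3.42%, and 3 DNA or Helitron-type elements held 2.22%. In the LTR elements a share of positions was counted in both terminal repeats. A read that fit both repeats of a consensus was counted at each with a weight of 0.5, and 920 kept positions (5.11%) had the same values in all libraries as a far position of the same element. They included 312 positions of 17.6, 178 of rooA, 132 of opus and 112 of Idefix and are not separate measurements.

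The share kept was taken over the positions of an element that reached the coverage limit, and not over its length. Of the positions that reached a coverage of 200 in Gal4, 74.8% were kept in flea, 69.4% in mdg3, 68.9% in 1360 and 63.3% in jockey. Of the whole length, kept positions made up 70.8% in flea, but 11.2% in mdg3, 8.92% in 1360 and 15.8% in jockey. With a Gal4 minimum of 500, 3445 kept positions remained in flea, but 0 in mdg3, 27 in 1360 and 164 in jockey. At a coverage of 200 the kept share was 48.6% in opus, 45.2% in I-element_new, 43.3% in rooA and 43.2% in TART-A. Lowered positions made up 47.1% in opus, 49.5% in I-element_new, 56.7% in rooA and 54.8% in TART-A. The kept share was 31.9% in Doc and 26.4% in 17.6, and under 15% in HMS-Beagle, Idefix, Stalker2, Quasimodo and Stalker. The lowest value was 3.27%, in Stalker. Raised positions were most numerous in flea (954) and Stalker2 (566).

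**Figure D1:**
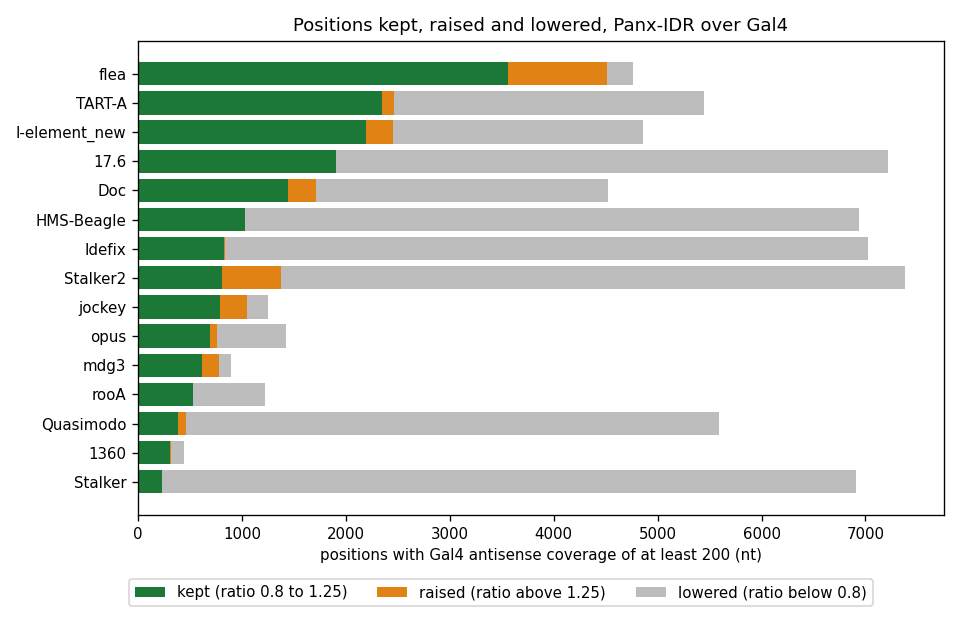
Number of positions with a Gal4 antisense coverage of at least 200 that were kept, raised or lowered in Panx-IDR relative to Gal4 (horizontal axis, nt) in the 15 elements with at least 100 kept positions (vertical axis). Kept positions make up 74.8% of the bar of flea and 3.27% of that of Stalker.

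The kept positions were broken into 1290 runs of consecutive nt with a median length of 6 nt, of which 260 were a single position and 256 were at least 25 nt long. Those 256 runs held 62.3% of the kept positions. The 10 longest runs were 9 of flea and 1 of Doc. The longest of them covered flea nt 1969 to 2138 (170 nt), with an antisense coverage of 1198 at day 6 and 1228 at day 7 in Panx-IDR, against 1043 and 1359.6 in Gal4. It was followed in flea by nt 1555 to 1714, 1144 to 1296, 2722 to 2848 and 1842 to 1959. The run of Doc lay at nt 561 to 673 (113 nt), with 525 and 531 in Panx-IDR, against 476 and 611 in Gal4. The last 4 of the 10 were nt 1424 to 1532, 4380 to 4488, 663 to 770 and 3122 to 3224 of flea. In these runs both Panx-IDR values lay within the range of the 2 Gal4 libraries or close to it, and the ratio of the means was 0.97 to 1.05.

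When gaps of up to 25 nt were bridged, 467 stretches remained. The longest reached along flea from nt 816 to 2447, with 1399 of its 1632 nt kept, and the next were flea nt 3065 to 3745 and nt 4380 to 4805. Among the longest stretches of other elements were nt 3711 to 4119 of TART-A, nt 1292 to 1616 of Doc, nt 4276 to 4597 of jockey, nt 719 to 944 of opus, nt 23 to 237 of 1360 and nt 3461 to 3667 of I-element_new.

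flea had the largest share of its length kept, 70.8%, beside 954 raised and 244 lowered positions. In its nt 1 to 500 only 125 positions were kept, with a mean coverage of 622 in Panx-IDR, against 480 in Gal4. Over its 3563 kept positions the antisense coverage per nt was 1212 at day 6 and 1107 at day 7 in Panx-IDR, against 1020.4 and 1228 in Gal4. The Panx-IDR values lay between those of the 2 Gal4 libraries. In windows of 100 nt, 43 of the 49 with a Gal4 coverage of 200 had a ratio within the limits, with a lowest ratio of 0.89 and a highest of 1.42 at its end. Its piRNAs were 99.3% antisense at the kept positions in Panx-IDR and 99.4% in Gal4. Over the whole consensus flea had 1126 and 1036 in Panx-IDR, against 923 and 1107 in Gal4. A profile without a lowered stretch was not particular to flea. The full bins of 500 nt in mdg3 had ratios of 0.92 to 1.35. Of the 5519 positions of mdg3, 4629 were under the coverage limit and could not be called kept.

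Doc and Stalker2 each had a stretch that held most of their kept positions and were lowered in the rest. The stretches were chosen from bins of 500 nt with at least 100 kept positions after these values were seen, and carry no test. In Doc, a LINE-like element, nt 1 to 2500 had an antisense coverage of 468 and 444 in Panx-IDR, against 459 and 513 in Gal4, a ratio of 0.94. This stretch held 1365 kept (54.6%), 266 raised and 681 lowered positions. The remaining 2225 nt had 1025 and 1048 in Panx-IDR, against 2371 and 3181 in Gal4, a ratio of 0.37. The more abundant end of Doc was thus the one with the lower ratio, and the groups overlapped only in the 5′ part. Windows from nt 2501 to 3100 had ratios of 0.61 to 0.72, and the window from nt 3101 had 0.31.

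In Stalker2, a gypsy-family LTR element, nt 3001 to 5000 had 2533 and 2374 in Panx-IDR, against 2166 and 2721 in Gal4, a ratio of 1.00. The other 5672 nt had 519 and 589 in Panx-IDR, against 1632 and 1996 in Gal4, a ratio of 0.31, and held 11 kept positions. The change was abrupt. The ratio was 0.28 in the window starting at nt 3101, 0.79 at nt 3301 and 1.13 at nt 3401, and it was 0.87 at nt 4901, 0.73 at nt 5001 and 0.38 at nt 5101. The ratio of 1.00 averages over unlike bins, with 0.63 at nt 3001 to 3500 and 1.10 to 1.21 from there to nt 5000. Within this stretch 794 positions were kept (39.7%), 408 were lowered and 566 were raised, with a highest window ratio of 1.39 at nt 3901.

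**Figure D2:**
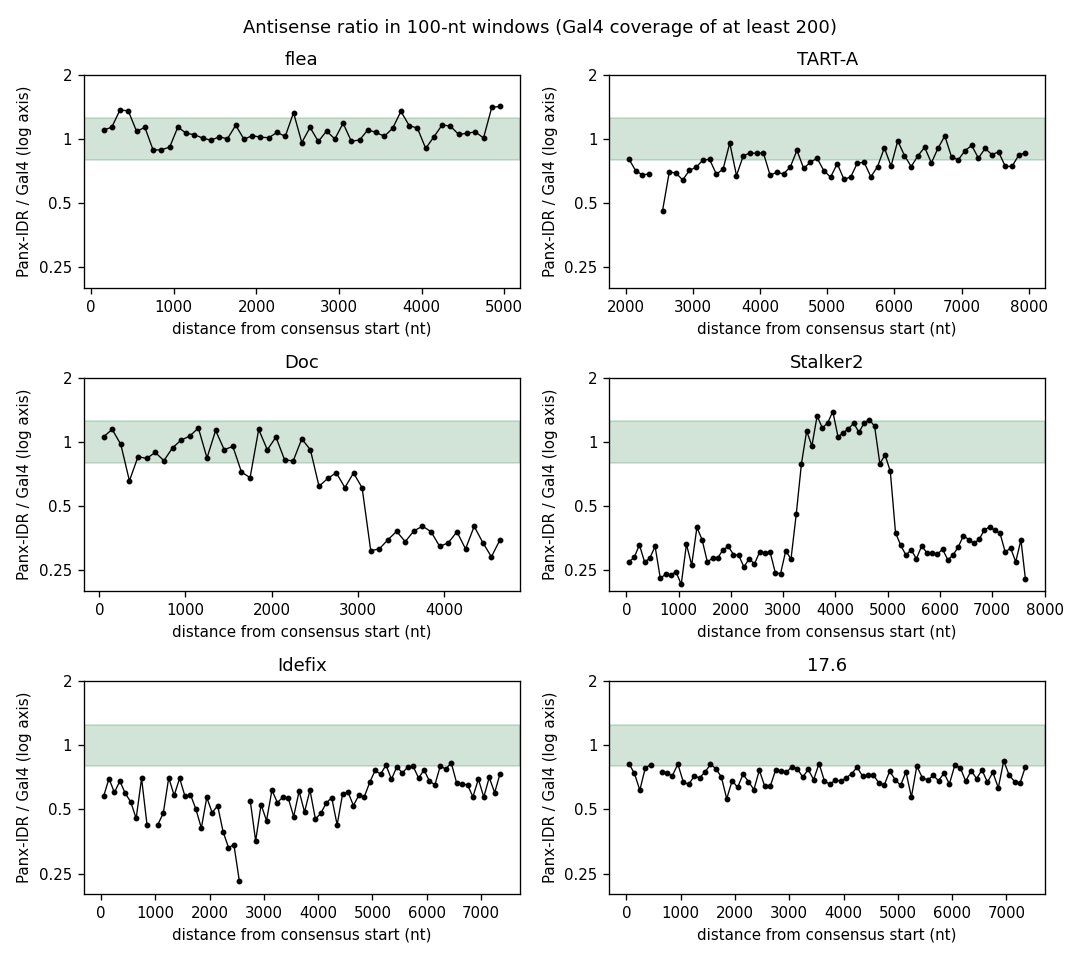
Ratio of Panx-IDR to Gal4 antisense coverage (group means, vertical log axis) in 100-nt windows along 6 consensus sequences (horizontal axis, distance from the consensus start in nt), for windows with a Gal4 coverage of at least 200. The shaded band marks the limits of the rule, 0.8 and its inverse; flea stays in or near the band, Doc and Stalker2 step out of it, Idefix touches it in 3 windows and 17.6 runs along its lower edge. The 6 elements were picked after their values were seen.

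17.6 and Idefix, both gypsy-family LTR elements, were of another kind. The kept positions of 17.6 were spread along the element, and its 100-nt windows had a median ratio of 0.72, with 7 of 73 inside the limits. Over its kept positions 17.6 had 2677 and 2690.15 in Panx-IDR, against 2897 and 3345 in Gal4. Both Panx-IDR values were below both Gal4 values, so that these positions were the upper end of a profile that was lower as a whole. Idefix had 2897 and 2880.15 in Panx-IDR at its kept positions, against 3021 and 3555 in Gal4, again without overlap. Its nt 5001 to 6500 had a ratio of 0.75 and the rest of the element 0.54.

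HMS-Beagle, also of the gypsy family, had 1028 kept positions scattered over its consensus. They had 722 and 665 in Panx-IDR, against 747 and 813 in Gal4, without overlap between the groups. The highest ratio of a bin of 500 nt was 0.69, and the whole element had 694 and 639 in Panx-IDR, against 1017 and 1093 in Gal4. mdg1, a gypsy-family element known as a target of flamenco piRNAs, had only 38 kept positions, all from nt 1442 to 2006. They had 893 and 727 in Panx-IDR, against 878 and 1010.3 in Gal4, groups that overlapped, while the rest of mdg1 had 1656 and 2094 in Panx-IDR, against 5506 and 6008 in Gal4.

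Of the LINE-like elements other than Doc, TART-A and I-element_new had kept positions over wide stretches and jockey mainly within nt 3501 to 5000. Ivk, Juan and F-element had 20, 5 and 1 kept positions. TART-A had 839.9 and 817 in Panx-IDR at its kept positions, against 828 and 995 in Gal4, and the groups overlapped. The profile around them was lower as a whole, with 25 of 59 windows of 100 nt inside the limits and a median ratio of 0.77. Over nt 3001 to 5000 TART-A had 728 and 688 in Panx-IDR, against 842 and 991 in Gal4. Over nt 5501 to 8000 it had 784 and 767 in Panx-IDR, against 845 and 1049 in Gal4. The groups did not overlap in either stretch. All kept positions of TART-A lay between nt 1986 and 8090, and the bins of 500 nt outside nt 2001 to 8000 had a Gal4 coverage of 87.8 or less. I-element_new had 403 and 412 in Panx-IDR, against 415 and 435 in Gal4, where both Panx-IDR values were the lower ones by a small margin. Over nt 1 to 5000 it had 347 and 353 in Panx-IDR, against 412 and 431 in Gal4, a ratio of 0.83. Its bins of 500 nt had ratios of 0.72 to 1.00, without a single border. jockey had 448 and 376 in Panx-IDR, against 396 and 407 in Gal4, overlapping values. Its nt 3501 to 5000 held 761 of its 791 kept positions at a ratio of 1.08, beside 252 raised and 187 lowered ones. Outside that stretch the Gal4 coverage averaged 84.8, below the limit, at a ratio of 1.31, and 30 kept, 16 lowered and 3 raised positions lay there.

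Of the remaining LTR elements, opus had 320.4 and 275 in Panx-IDR at its kept positions, against 286 and 329 in Gal4, and 475 of these positions lay from nt 501 to 1500. The groups overlapped. In Stalker2 the kept positions had 3234 and 2960.3 in Panx-IDR, against 2689 and 3237 in Gal4, also overlapping. Over the 15 elements with at least 100 kept positions, the groups overlapped in 11 and Panx-IDR was below Gal4 in 4 (I-element_new, 17.6, HMS-Beagle and Idefix). The rule picks positions with close group means, so it favours overlap, and these counts are no evidence about the elements. Quasimodo, lowered over most of its length, held a bin at nt 6501 to 7000 with a ratio of 1.14 at a Gal4 coverage of 157, while the bins next to it had 0.41 and 0.31.

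**Figure D3:**
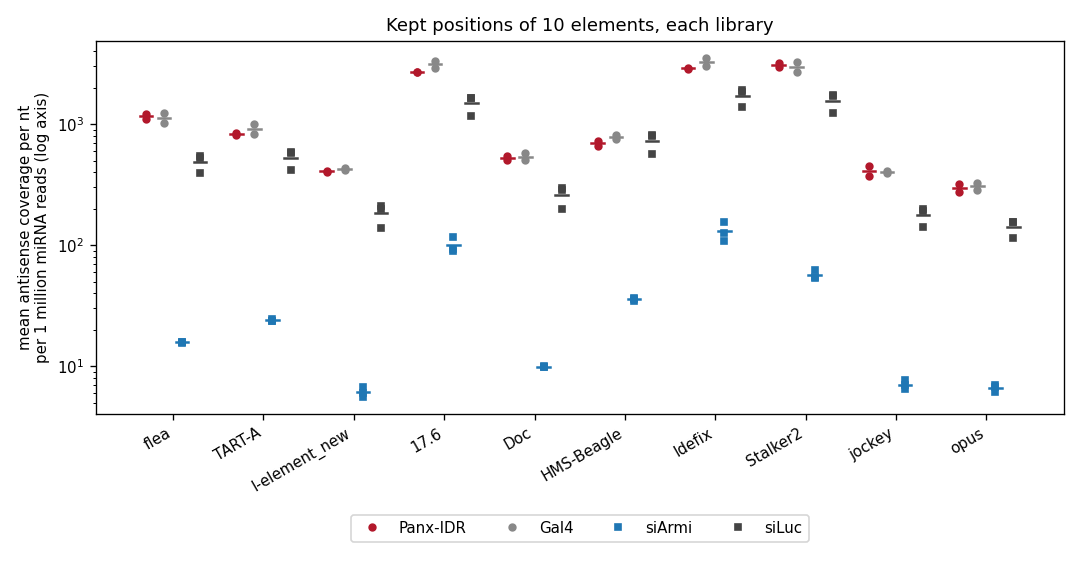
Mean antisense coverage per nt at the kept positions (vertical log axis, per 1000000 miRNA reads) in the 10 elements with most of them. Points are single libraries of Panx-IDR, Gal4, siArmi and siLuc and bars are group means; Panx-IDR and Gal4 lie close by the rule, and every siArmi point is below every siLuc point.

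The sense strand at the same positions did not enter the rule but comes from the same libraries, and is described without a test. Over all kept positions sense coverage was 53.1 and 52.3 in Panx-IDR, against 72.3 and 80.8 in Gal4. Single elements went far from this value in both directions. At the 38 kept positions of mdg1 it was 635 and 938 in Panx-IDR, against 5.74 and 3.81 in Gal4, and at those of Quasimodo 208 and 148 in Panx-IDR, against 33.6 and 46.1 in Gal4. In Stalker2 it was 33.2 and 30.5 in Panx-IDR, against 5.16 and 5.21 in Gal4. In Doc it was lower, with 148 and 166 in Panx-IDR, against 373 and 382 in Gal4, and in flea the groups overlapped at 8.94 and 7.03 in Panx-IDR, against 6.29 and 7.92 in Gal4. Antisense coverage, even by the rule, thus stood beside sense coverage that was several-fold higher, lower or alike, depending on the element. The Gal4 sense values of mdg1 stand for very few reads. Sense coverage also differed away from kept positions. Over all lowered positions it was 110 and 117 in Panx-IDR, against 55.2 and 58.5 in Gal4. Outside the stretches described above, group means were 240 in Panx-IDR and 55.1 in Gal4 in Stalker2, and 41.7 and 76.6 in Doc.

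The kept positions gave 8.58% ± 0.92 of all antisense coverage outside roo in Panx-IDR and 3.82% ± 0.031 in Gal4 (SD, n = 2 each). The larger share in Panx-IDR follows from the rule, because most other positions above the coverage limit were lowered. Its SD also spans the different harvest days. In the siRNA experiment the kept positions gave 3.21% ± 0.11 in siArmi and 3.09% ± 0.0024 in siLuc (SD, n = 3 each). Positions under the coverage limit, most of the consensus length with 425618 positions outside roo, had an antisense coverage of 18.4 and 18.7 in Panx-IDR, against 16.1 and 20.03 in Gal4, and so also showed overlapping groups at a low level.

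Whether the kept positions depended on the piRNA pathway was asked in the siArmi and siLuc libraries, which the rule did not use. The tables hold small RNAs of transposons only, so the armitage and flamenco transcripts could not be followed in them. Antisense coverage over the kept positions was 35.2, 30.6 and 28.9 in the 3 siArmi libraries, against 695, 682 and 496 in the 3 siLuc libraries, so that 5.06% ± 0.52 of the siLuc mean was left (SD, n = 3). The groups were far apart. The exact two-sided permutation test of this single value gave p = 0.1, the smallest that 3 against 3 libraries can give. Lowered positions had 118, 105 and 104 in siArmi, against 2491, 2447 and 1779.5 in siLuc, which left 4.86% ± 0.36. These SDs, and those of the coverage left below, were taken over the siArmi libraries, each divided by the siLuc mean. They leave out the spread of the siLuc libraries. In these bulk libraries fewer cells with piRNAs and fewer piRNAs per cell cannot be told apart, and siLuc replicate 3 was the lowest siLuc library at both kinds of position.

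The test across elements split every consensus into its kept, lowered, raised and low-coverage parts and compared mean coverage on the log2(value + 1) scale with limma, which adjusts p-values after Benjamini and Hochberg. All 17 kept parts with at least 50 positions, those of the 15 elements above and of Copia1 and Repbase_DNAREP1, were lower in siArmi. So were 100% of the 108 parts tested (108 of 108), so that a loss in siArmi is not particular to kept positions. The log2 change of the kept parts ran from -4.86 in flea to -3.72 in Idefix, each with an SE of 0.20 to 0.22. In windows of 100 nt, which do not depend on the borders of the parts, 140 of 140 windows with at least 50% of their positions kept were lower in siArmi, as were 2685 of 2685 windows (100%). limma found infinite prior degrees of freedom in both fits, so each part was tested against a spread shared by all of them and not against its own replicates. Scaling to miRNAs carries the shared direction. On that scale the total antisense coverage was 1.73e+07 to 1.97e+07 in siArmi, against 2.97e+08 to 4.15e+08 in siLuc. Scaling to this total removes a loss shared by all parts and can show only relative changes, so it does not bear on the shared loss. When each library was scaled to its own total antisense coverage instead, the median of all parts was -0.18 and 10 of the 17 kept parts were lower and 3 higher in siArmi, in a fit that called 45 of 107 parts lower and 15 higher.

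Kept parts differed among themselves in how much was left. In flea, antisense coverage was 15.8, 15.8 and 15.7 in siArmi, against 546, 528 and 399 in siLuc, leaving 3.21% ± 0.017 (SD, n = 3). This small SD does not hold the wider siLuc spread. I-element_new had 6.69, 6.00 and 5.58 in siArmi, against 212, 199 and 138 in siLuc, leaving 3.33% ± 0.31. Stalker2 had 62.4, 54.7 and 53.6 in siArmi, against 1749.9, 1697 and 1229 in siLuc, leaving 3.65% ± 0.31. These were among the elements with the least coverage left.

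Doc had 9.95, 9.76 and 9.76 in siArmi, against 299, 286 and 200.1 in siLuc, leaving 3.75% ± 0.041. jockey had 7.68, 7.02 and 6.46 in siArmi, against 199.8, 193 and 142 in siLuc, leaving 3.95% ± 0.34. TART-A had 24.7, 23.4 and 23.6 in siArmi, against 592, 578 and 418 in siLuc, leaving 4.52% ± 0.13. In all 3 LINE-like elements every siArmi library was below every siLuc library.

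opus had 7.04, 6.79 and 6.09 in siArmi, against 157, 154 and 114 in siLuc, leaving 4.69% ± 0.35. HMS-Beagle had 36.7, 35.7 and 34.8 in siArmi, against 822, 796 and 562 in siLuc, leaving 4.92% ± 0.13. The gypsy-family elements at the other end of the order were 17.6 and Idefix. 17.6 had 116, 93.6 and 88.8 in siArmi, against 1651, 1647 and 1179.7 in siLuc, leaving 6.67% ± 0.98. Idefix had 154, 127 and 108 in siArmi, against 1850.1, 1917 and 1396 in siLuc, leaving 7.54% ± 1.4. The order from flea to Idefix is a description. Between close values in it, such as Doc and jockey or opus and HMS-Beagle, the means differed by less than the larger SD of the pair, whereas each siArmi library left more in 17.6 and Idefix than any did in flea.

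Among the further elements with at least 100 kept positions, 1360, a DNA transposon of the P-element group, left 3.46% ± 0.26, rooA, of the BEL/Pao family, 3.77% ± 0.10, Stalker 3.80% ± 0.47, Quasimodo 3.89% ± 0.35 and mdg3 5.56% ± 0.75 (SD, n = 3 each). All but the first are LTR elements, and the values fell within the span set by flea and Idefix.

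The strand bias at kept positions differed between elements. Antisense made up 94.4% or more of the coverage of flea, TART-A, I-element_new, 17.6, HMS-Beagle, Idefix, Stalker2, jockey, opus, rooA and Stalker in Panx-IDR, and 95.8% or more in siLuc, with the lowest value of both in I-element_new, which had 86.5% ± 3.4 in siArmi (SD, n = 3). mdg3 lay between, with 73.3% in Panx-IDR and 72.7% in Gal4, and 80.6% in siArmi and 70.8% in siLuc. 1360 had 36.7% in Panx-IDR and 31.4% in Gal4, and 33.1% in siArmi and 28.3% in siLuc, so that sense small RNAs were the more frequent ones at its kept positions. Doc had 78.7% and 75.4% in Panx-IDR, against 57.4% and 60.1% in Gal4, and 57.7% in siArmi and 57.8% in siLuc. Quasimodo had 60.2% in Panx-IDR and 87.1% in Gal4, and 49.8% in siArmi and 68.4% in siLuc.

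**Figure D4:**
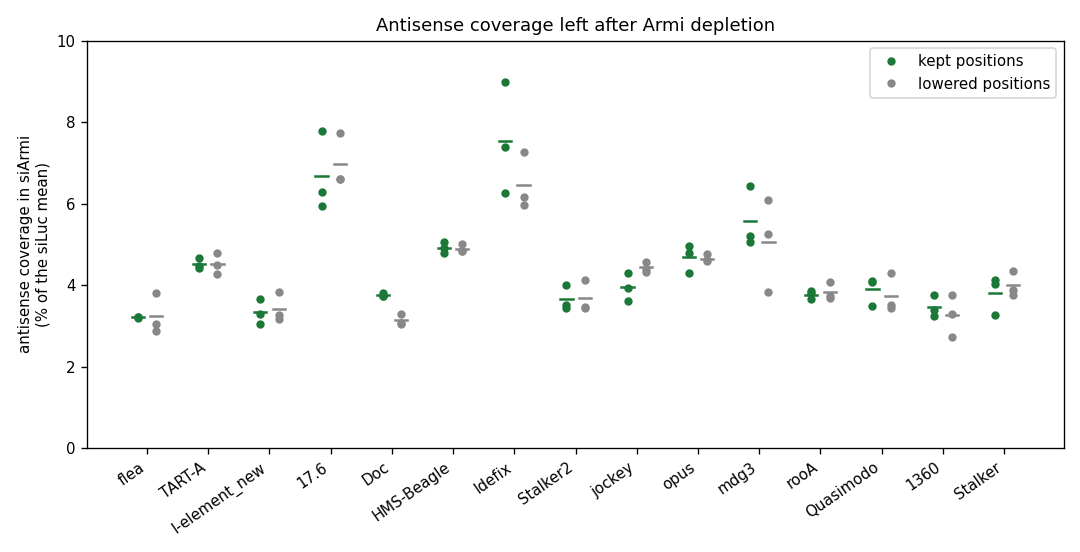
Antisense coverage left in siArmi (vertical axis, % of the siLuc mean) at the kept and lowered positions of the 15 elements with at least 100 kept positions. Points are the 3 siArmi libraries and bars their means; kept positions run from 3.21% in flea to 7.54% in Idefix, and kept and lowered points overlap in most elements.

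To ask whether a kept part was lost to another degree than the rest of its own element, the log2 difference between part and rest was compared between siArmi and siLuc with limma. Of 17 kept parts, 6 were lower in siArmi relative to their rest and 3 were higher, where 31.2% of all 80 parts were lower (25) and 35% were higher (28). The share called lower was thus close to that of all parts, while the share called higher (3 of 17) was below that of all parts (28 of 80). The 80 parts include the kept ones and the other parts of the same elements, so they are no independent background. The 3 higher ones were Quasimodo (0.35 ± 0.087 SE, adjusted p = 0.00945), Doc (0.34 ± 0.041, adjusted p = 0.00039) and Idefix (0.21 ± 0.067, adjusted p = 0.0272). The 6 lower ones were Copia1 (-0.73), 1360 (-0.72), rooA (-0.39), jockey (-0.34), TART-A (-0.21) and opus (-0.18). The 8 others, flea, I-element_new, 17.6, HMS-Beagle, Stalker2, mdg3, Stalker and Repbase_DNAREP1, ranged from -0.14 to 0.03 and did not pass the test.

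The calls moved with the pseudocount. With a pseudocount of 0.1, rooA (-0.17) alone was called lower and Doc (0.26, adjusted p = 0.00935) alone higher among kept parts, while Idefix stayed at 0.21 (adjusted p = 0.0758). With a pseudocount of 10, 11 kept parts were called lower, flea (-0.15), I-element_new (-0.12), Stalker2 (-0.11), mdg3 (-0.51) and Repbase_DNAREP1 (-0.25) being added, and the same 3 were called higher. With the rest limited to positions at a Gal4 coverage of 200, an alternative added after the data were seen, none was lower (in limma, with 12 of 47 parts at an unadjusted p below 0.05), and Doc (0.34, adjusted p = 0.00554) and Quasimodo (0.36, adjusted p = 0.0478) were higher, with Idefix at 0.21 (adjusted p = 0.0857). The call for Doc was lost with the median over positions (0.07, adjusted p = 0.523), and that for Idefix was lost when either siArmi replicate 1 or 2 or any siLuc replicate was left out, with log2 differences of 0.17 to 0.23. That for opus was lost when siArmi replicate 2 or any siLuc replicate was left out, with log2 differences of -0.20 to -0.17. In Doc the 5′ part, nt 1 to 2500, kept 3.75% ± 0.025 of the siLuc mean in siArmi, and the remaining positions kept 3.11% ± 0.13 (SD, n = 3 each). Both SDs leave out the siLuc spread.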

How the data were processed

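Argonaute-bound small RNAs of 10 OSC libraries were analysed (Panx-IDR 2, Gal4 2, siArmi 3, siLuc 3), grouped by their titles. The authors isolated them on TraPR columns, removed adaptors, kept reads of 24 to 35 nt and aligned them with bowtie, allowing 2 mismatches, to RepBase-based consensus sequences. They kept reads that fit once, or at most 2 times on the same consensus (weighted 0.5 at both places), so elements of similar sequence can lose reads. The submitters' processing notes name cutadapt, Bowtie and HOMER without versions. The 3′ adaptor differed between the tethering and the siRNA experiment. The deposited tables hold coverage per position: sense as signal and antisense as a signed score, stored below 0 and used here by its size, both per 1000000 miRNA reads. No sequences are printed because no consensus sequences were used here.

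From the deposited values, mean coverage per nt was taken over kept, lowered, raised and low-coverage parts of each element, over 100-nt windows and over 500-nt bins. siArmi was set against siLuc in limma 3.58.1 (R 4.3.3, trend on) on log2(mean coverage + 1), for parts of 50 or more positions whose coverage averaged 10 or more over the 6 libraries, at a Benjamini-Hochberg adjusted p of 0.05. Coverage is not a count, so count models were not applied. The fits were tested on simulated data with the spread of the real libraries, in which noise was independent between features, so that a shift shared by a whole library was not covered. False calls came somewhat above the nominal share in some of these settings, and not every planted change was recovered. Alternatives were other limits of the rule, pseudocounts, filters, scalings and averages, limma without the trend, the replicate number as a block, and each library left out in turn. Python 3.11.15 with numpy 2.4.6, pandas 2.3.3 and matplotlib 3.10.9 made the tables and figures.

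The kept positions, the element classes and the stretches were chosen with earlier results of these data known. Elements with at least 100 kept positions were named, the 10 with most were given in every library, the 10 longest runs were described, and flea, HMS-Beagle and mdg1 were named in any case. Copia1 and Repbase_DNAREP1, and the elements of single bins, were named after their values were seen. The depth, read from the smallest step between values, limits single positions in the tethering libraries, which have 87066 to 151205 miRNA reads.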

Additional observations from a re-analysis of the deposited data

How the results depend on the processing

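The number of kept positions followed the rule. It was 11648 with a Gal4 minimum of 500, 8158 with narrower limits of 0.9 and about its inverse and 33423 with 0.67 to 1.5, against 17993 as reported, and 15467 to 20020 when a tethering library was left out. With each library scaled to its total antisense coverage without roo, 54288 positions met the rule and 0 of them were among the 17993. That total was 2.21e+08 and 2.46e+08 in Panx-IDR, against 5.13e+08 and 6.04e+08 in Gal4. The scaling sets these totals equal, with factors of 1.79 and 1.61 in Panx-IDR and 0.77 and 0.66 in Gal4. It thus removes the shared loss and lifts every kept ratio above the upper limit, so the 0 follows from the factors. Median-ratio scaling also raised Panx-IDR and lowered Gal4, and gave 31651 positions, of which 268 were shared. These counts therefore do not test the rule. Which positions count as kept rests on the scaling to miRNA reads.

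For the parts, siArmi against siLuc, 190 were lower with no filter, which also tested more of them, 45 with scaling to total antisense coverage and 35 with median-ratio scaling (10 of 17 kept parts in both), and 99 to 112 with a library left out. Both scalings remove a loss shared by all parts, so the log2 changes under them are relative to the other coverage. Under the total scaling the log2 change was positive in 17.6 (0.45), HMS-Beagle (0.019), Idefix (0.61) and mdg3 (0.18). Under median-ratio scaling it was positive in 17.6 (0.56), HMS-Beagle (0.13), Idefix (0.72), TART-A (0.0048), mdg3 (0.29) and opus (0.051). For windows, 5528 were lower with no filter, 659 with total scaling (65 kept windows), 522 with median-ratio scaling (56 kept windows) and 2508 to 2811 with a library left out.

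For a part against the rest of its element, the counts lower and higher were 7 and 10 with a pseudocount of 0.1 (kept parts 1 and 1), 38 and 32 with a pseudocount of 10 (kept parts 11 and 3), 42 and 45 with no filter, 11 and 6 with the median over positions (kept parts 2 and 1), and 4 and 5 with the rest limited to a Gal4 coverage of 200 (kept parts 0 lower). They were 21 to 29 lower and 19 to 29 higher with a library left out, with 5 to 8 and 2 to 3 kept parts. Without siArmi replicate 1, 17.6 (-0.11, adjusted p = 0.0367 in limma) and mdg3 (-0.21, adjusted p = 0.0014) were also called lower. The log2 difference changed sign for Copia1 (0.026), opus (0.027) and Repbase_DNAREP1 (0.085) with a pseudocount of 0.1, for Stalker (0.068) and flea (-0.15) with 10, and for HMS-Beagle (-0.015), Stalker2 (0.12) and mdg3 (0.16) with the median. With the limited rest it changed for 1360 (0.030), Copia1 (0.18), Repbase_DNAREP1 (0.35) and mdg3 (0.078). With a library left out it ranged from -0.0072 to 0.018 in HMS-Beagle, -0.15 to 0.17 in Repbase_DNAREP1 and -0.053 to 0.085 in flea. Where a scaling, a pseudocount or an average moved a value, the cause was not tested further.

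The replicate numbers did not pair the samples. Deviations of same-numbered siArmi and siLuc libraries correlated at -0.14, -0.02 and 0.08 over 108 parts, and not every library correlated best with its own number. With the number as a block, 108 parts and 2685 windows were lower, and 25 parts were lower and 27 higher than the rest of their element (kept parts 5 and 3).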
